A study of Mus musculus with 14 samples.

Results

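The ETS family transcription factors measured here are the genes Ets1, Ets2, Erg, Fli1, Elk3, Etv6, Elf1, Elf2, Elf4 and Gabpa, 10 genes with 1 target each among the 23930 transcript targets of an amplicon panel. They were chosen by name, as relatives of ETS1, which the title of the series names, and were measured in liver sinusoidal endothelial cells (LSECs). LSECs are the fenestrated cells that line the capillaries of the liver. The title concerns iron, the p38 kinase and ETS1 upstream of Bmp6, whose product, a bone morphogenetic protein made by LSECs, acts on hepatocytes to switch on the gene of the iron hormone hepcidin.

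The RNA came from LSECs of wild type female C57BL/6J mice, sorted for dim CD45, high STAB2 and high CD146. The 7 aged libraries came from mice of 10 to 11 months and the 7 young libraries from mice of 8 to 10 weeks. Genotype, sex, strain and gate are the same in both ages. Experiment 1 contributed 3 aged and 3 young libraries and experiment 2 contributed 4 of each, and a library is named here by age, experiment and replicate, as in aged 2.3. The labels do not state that each library is a separate mouse, so a p-value measures the spread between these libraries, part of which may be technical. An age of 10 to 11 months is middle age in a mouse, which limits the aged group as a model of old age.

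ETS proteins share a DNA-binding domain that contacts a GGAA core, and the bases around that core and the partner proteins set which genes a member acts on. Endothelial cells use several members at once: ERG, FLI1 and ETS1 are activators of genes that give these cells their identity, whereas ETV6 is a repressor and ELK3 switches between both roles. Kinases of the Ras pathway phosphorylate ETS1, ETS2 and ELK3, which raises the activity of the proteins without any change in their transcripts. Abundance of mRNA is therefore only a part of how the family works.

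Promoter sequence is shown for 4 genes, since the GGAA core is what the family reads. Bmp6 is shown as the gene that the series title ties to ETS1, Ets2 as the member with the smallest p for age, Elk3 as the most abundant member with an entry, and Gabpa as the member whose window held the longer motif. Each run is the 250 bases before a RefSeq transcription start (GRCm38.p6), written 5′ to 3′ on the strand of the gene, with GGAA or its reverse complement TTCC in capitals. Bmp6 lies at chr13:38345466-38345715 (plus strand), Ets2 at chr16:95702157-95702406 (plus), Elk3 at chr10:93311160-93311409 (minus) and Gabpa at chr16:84834874-84835123 (plus).
Bmp6: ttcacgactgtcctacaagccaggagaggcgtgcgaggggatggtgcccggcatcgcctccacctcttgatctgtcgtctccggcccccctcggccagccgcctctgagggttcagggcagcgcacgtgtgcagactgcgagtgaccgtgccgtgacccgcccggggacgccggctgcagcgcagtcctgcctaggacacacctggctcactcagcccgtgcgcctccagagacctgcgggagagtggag
Ets2: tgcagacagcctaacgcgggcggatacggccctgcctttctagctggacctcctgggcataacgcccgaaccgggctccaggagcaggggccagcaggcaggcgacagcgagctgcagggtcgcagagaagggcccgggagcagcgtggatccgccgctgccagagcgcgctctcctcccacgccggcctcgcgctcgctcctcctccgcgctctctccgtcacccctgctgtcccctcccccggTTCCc
Elk3: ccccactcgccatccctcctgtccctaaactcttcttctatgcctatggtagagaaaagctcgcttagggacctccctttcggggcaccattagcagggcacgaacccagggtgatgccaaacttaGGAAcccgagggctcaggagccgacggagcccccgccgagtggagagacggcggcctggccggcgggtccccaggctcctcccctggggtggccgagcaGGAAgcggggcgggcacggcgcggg
Gabpa: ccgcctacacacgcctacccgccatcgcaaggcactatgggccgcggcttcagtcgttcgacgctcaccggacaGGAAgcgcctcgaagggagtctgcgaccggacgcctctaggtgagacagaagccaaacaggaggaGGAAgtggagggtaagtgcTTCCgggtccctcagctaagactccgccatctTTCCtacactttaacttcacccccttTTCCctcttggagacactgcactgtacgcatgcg

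GGAA was searched on both strands and was found 0 times in the Bmp6 window, 1 time in Ets2, 2 times in Elk3 and 5 times in Gabpa. Of all 32851 windows of this length in the RefSeq table, 93.5% held GGAA, with a median of 3 matches. The longer CCGGAA, which contains GGAA, was in 12.03% of windows and CCGGAAGT in 2.88%. Of the members, 8 had an entry, with 13 start sites between them. GGAA was in 11 of these windows, CCGGAA in 1 (Gabpa) and CCGGAAGT in 0. Ets1 and Fli1 were not among the entries. A match is a description of letters in the window, and no binding was measured in these libraries.

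Libraries held 6710403 to 13977361 reads on genes, and the filter on low counts kept 14168 targets, all 10 ETS genes included. Levels of single genes are in CPM, counts per 1000000 gene reads, after scaling of the libraries by trimmed means of M values (TMM). Sums over a list of genes are in CPM without TMM. All 10 LSEC markers had enough reads to be tested, as had all 10 markers of continuous endothelium. LSEC markers summed to 18855 to 25100 CPM in aged libraries and 21277 to 25091 CPM in young ones. Markers of continuous endothelium summed to 3962 to 6394 CPM and 4325 to 6823 CPM. By age, 4 of 10 LSEC markers had an unadjusted p under 0.05 in edgeR (2 higher and 2 lower in aged libraries), beside 6.77% of all targets. Targets of olfactory, vomeronasal and taste receptors, which are genes silent in liver endothelium, took 0.145 to 3.15% of gene reads. They were at 1.19 to 3.15% in experiment 1. In experiment 2, aged 2.4 at 2.78% and young 2.2 at 2.90% were well over the rest, none of which passed 0.953%. Leukocyte markers were also uneven, with Kupffer cell markers summing to 37.9 to 323 CPM in aged libraries and 32.6 to 116 CPM in young ones, and B cell markers to 4.93 to 462 CPM in aged libraries and 1.83 to 74.8 CPM in young ones. T and NK cell markers summed to 7.80 to 618 CPM in aged libraries and 5.60 to 234 CPM in young ones, hepatocyte markers to 461 to 5728 CPM in aged libraries and 350.1 to 1600.1 CPM in young ones, and cholangiocyte markers to 22.1 to 905 CPM in aged libraries and 14.3 to 247 CPM in young ones. By age, unadjusted p in edgeR was under 0.05 for 6 of 7 tested Kupffer cell markers and 6 of 6 B cell markers. The same held for 3 of 5 monocyte and neutrophil markers and 2 of 4 cholangiocyte markers. All of these were higher in aged libraries, and 0 had an adjusted p under 0.05. It held for 0 of 7 T and NK cell markers and 0 of 7 hepatocyte markers. The admixture of other cells therefore differed with age. Aged 1.1 and aged 1.2 were the most alike, with a chi-square per degree of freedom of 6.35 against 19.55 or more for other pairs, which does not show whether they are separate mice. They were counted as 2 libraries, and summing them as 1 left 0 ETS genes called and 4 targets called in place of 23.

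Libraries of sorted LSECs held reads on all 10 ETS genes, over a wide span of levels. Ets1 and Elk3 stood far above the rest, at a mean of 1057 and 886 CPM over the 14 libraries, which ranked them 95 and 115 among 14168 targets. Ets2 at 255 CPM and Elf2 at 245 CPM followed, then Elf1 at 177, Fli1 at 110.2, Erg at 106, Etv6 at 78.7, Gabpa at 26.4 and Elf4 at 10.4 CPM. Each target is read by 1 short amplicon, so levels need no scaling by length, but amplicons differ in how well they amplify. The order is therefore one of reads and not of molecules. In bulk RNA, fewer expressing cells and less RNA per cell cannot be told apart. Reads of other cell types, whose markers were present, are counted as well. Of the 1321 receptor targets, 1126 also passed the filter. Passing it therefore does not show expression by LSECs, which matters most for scarce members such as Elf4.

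In this order, 3 pairs of neighbours did not differ beyond the spread between libraries. Ets1 exceeded Elk3 by 0.23 ± 0.32 on the log2 scale (mean and SD of the difference within a library), in 11 of 14 libraries. For Ets2 over Elf2 the difference was 0.029 ± 0.33, with Ets2 ahead in 6 of 14, and for Fli1 over Erg it was 0.065 ± 0.32, with Fli1 ahead in 7 of 14. The other 6 steps were larger than their SD. The largest was Elk3 over Ets2, at 1.83 ± 0.36 in 14 of 14 libraries. The steps from Etv6 to Gabpa (1.57 ± 0.34) and from Gabpa to Elf4 (1.43 ± 0.73) were also present in 14 of 14. The same 6 steps exceeded their SD without young 2.2 and aged 2.4.

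**Figure D1:**
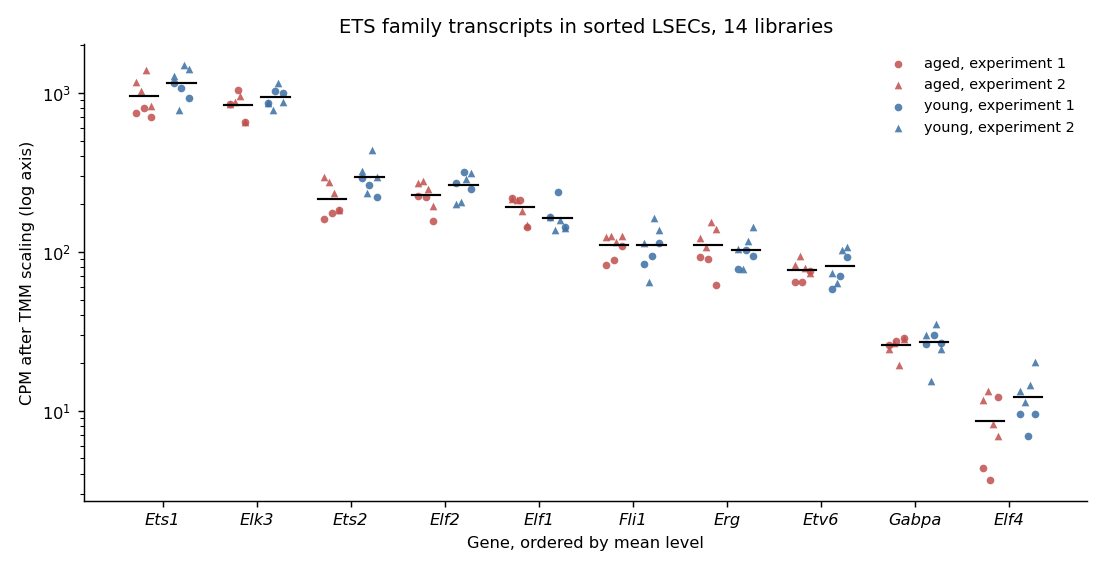
Level of the 10 ETS genes in each library, in CPM after TMM scaling on a log axis, with aged libraries left of young ones for each gene, circles for experiment 1, triangles for experiment 2 and a bar at each mean. Ets1 and Elk3 lie highest, at means of 1057 and 886 CPM, and Elf4 lowest, at 10.4 CPM, and the ages overlap for every gene.

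Across ages, no ETS gene passed the test in edgeR. The quasi-likelihood test with the experiment as a term gave 0 of 10 members an adjusted p under 0.05, where 0.162% of all tested targets passed. At an unadjusted p under 0.05 there was 1 member, Ets2, against 6.77% of all targets. DESeq2 called 1 member, Ets2, against 1.0% of all targets, and had 2 at an unadjusted p under 0.05, against 9.69%, while limma-voom called 0. Log2 fold changes, aged over young, were negative for 8 members and positive for 2, with a median of −0.12 beside −0.0022 over all targets. With no TMM scaling 6 of 10 were negative, a setting that also lowered the count of negative values among all 14168 targets to 5668, against 7145 with it. In no member did the 7 aged libraries lie apart from the 7 young ones, as they did for 0.233% of targets.

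**Figure D2:**
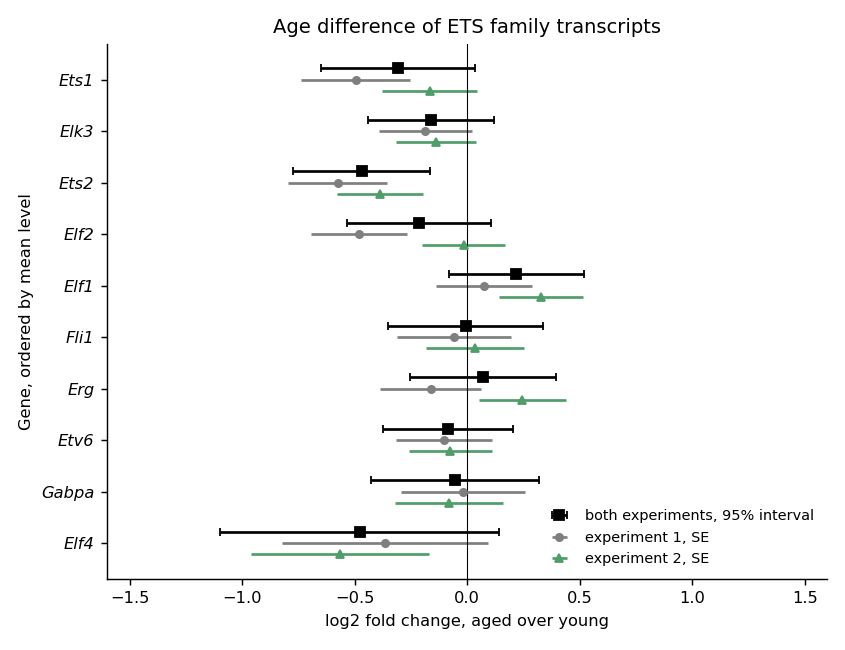
Log2 fold change, aged over young, of each ETS gene from edgeR: squares with 95% intervals for both experiments, circles and triangles with SE for experiments 1 and 2. Only the interval of Ets2, around −0.47, does not reach 0, and 8 of 10 genes have the same sign in both experiments.

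The ETS1 and ETS2 proteins are each other's closest relatives and are both activated by phosphorylation in the Ras pathway. Ets1 (NM_001038642.1) ranged from 700.4 to 1398 CPM in aged libraries, with a median of 829.8, and from 777 to 1503 CPM in young libraries, with a median of 1161. The ages overlapped, but 6 of 7 aged libraries were under the mean of the young libraries in their experiment. The means were 953 ± 258 CPM in aged libraries and 1161 ± 260 CPM in young ones (SD, n = 7 libraries per age), a fold of 0.81 (95% interval 0.64 to 1.02). Its log2 fold change of −0.31 (SE 0.16) had an adjusted p of 0.819 in edgeR's test, and an exact two-sided permutation within experiments gave p = 0.0971.

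By experiment, Ets1 stood at 744, 797 and 700.4 CPM in the aged libraries of experiment 1, against 1161, 1075 and 926 CPM in the young ones. All 3 aged values were below all 3 young values, a separation that 19.0% of all targets showed in experiment 1. In experiment 2 the aged libraries had 1178, 1021, 1398 and 829.8 CPM and the young libraries 1273, 777, 1503 and 1416 CPM. The ages overlapped there, and both libraries with high receptor reads, aged 2.4 and young 2.2, were the lowest of their age. The log2 fold changes were −0.50 (SE 0.24) and −0.17 (SE 0.21), and the test of their difference gave an unadjusted p of 0.323 in edgeR (adjusted 0.9998).

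Ets2 (NM_011809.3) had the smallest p of the family. It ranged from 162 to 293 CPM in aged libraries, with a median of 184, and from 222 to 439.6 CPM in young libraries, with a median of 292. Each of the 7 aged libraries was under the mean of the young libraries in its experiment, 4 aged libraries were below every young one and 3 young libraries were above every aged one. The means were 215 ± 52.2 CPM in aged libraries and 295 ± 73.0 CPM in young ones (SD, n = 7 per age), a fold of 0.72 (95% interval 0.58 to 0.89). The log2 fold change of −0.47 (SE 0.14) had an unadjusted p of 0.00524 and an adjusted p of 0.460 in edgeR's test and an adjusted p of 0.0351 in DESeq2. Exact permutation gave p = 0.01, where 0.00143 is the smallest that the design allows.

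In experiment 1, Ets2 had 162, 174 and 184 CPM in aged libraries and 292, 261 and 222 CPM in young libraries, with no overlap. In experiment 2 it had 293, 273, 235.5 and 184 CPM in aged libraries and 320.5, 233, 439.6 and 297 CPM in young libraries, which overlapped. Young 2.2, with its high receptor reads, was the lowest of the young libraries in experiment 2 and aged 2.4 the lowest of the aged. The log2 fold change was −0.58 in experiment 1 and −0.39 in experiment 2, and over 24 alternative fits it stayed between −0.57 and −0.38, with an unadjusted p under 0.05 in 24 of 24 and an adjusted p of 0.0351 to 0.973.

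ERG and FLI1 form a subfamily that keeps endothelial genes such as the VE-cadherin gene Cdh5 switched on. Erg (NM_001302152.1) ranged from 62.2 to 154 CPM in aged libraries, with a median of 106, and from 77.6 to 142 CPM in young libraries, with a median of 103. The ages overlapped almost whole, and aged libraries held both the lowest and the highest value. Its log2 fold change was 0.070 (SE 0.15), with −0.16 in experiment 1 and 0.24 in experiment 2, and it was −0.042 without young 2.2 and aged 2.4. Fli1 (NM_008026.5) ranged from 82.8 to 126 CPM in aged libraries, with a median of 116, and from 64.9 to 164 CPM in young libraries, with a median of 113. Young libraries held both extremes, and the means were 110.2 ± 17.9 CPM in aged libraries and 110.2 ± 33.2 CPM in young ones (SD, n = 7 per age). The log2 fold change of Fli1 was −0.0064 (95% interval −0.35 to 0.34), a sign that turned with no TMM scaling (0.079).

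ELK3 is a ternary complex factor: it binds DNA together with serum response factor and passes from repressor to activator when it is phosphorylated. Elk3 (NM_001282967.1) ranged from 651 to 1035 CPM in aged libraries, with a median of 849, and from 775 to 1150 CPM in young libraries, with a median of 879.7. The lowest aged libraries were aged 1.3 and aged 2.4, the only 2 below every young library. Its log2 fold change was −0.16 (95% interval −0.44 to 0.12) and had nearly the same size in both experiments, at −0.19 and −0.14. Elk3 had the lowest biological coefficient of variation of the family, 18.5%, where the median over all targets was 35.2%.

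ETV6 is a repressor that self-associates through its pointed domain. Etv6 (NM_001303102.1) ranged from 64.4 to 94.5 CPM in aged libraries, with a median of 76.1, and from 58.4 to 108 CPM in young libraries, with a median of 73.0. The aged values lay within the range of the young ones, and the log2 fold change was −0.088 (95% interval −0.38 to 0.20). GABPA is the DNA-binding subunit of GA-binding protein, an activator of genes for mitochondrial respiration that is also called nuclear respiratory factor 2 and is not the NRF2 of the series title, which is the product of Nfe2l2. Gabpa (NM_008065.2) ranged from 19.5 to 28.5 CPM in aged libraries, with a median of 26.8, and from 15.4 to 35.3 CPM in young libraries, with a median of 26.8. Aged libraries again lay within the range of the young ones, and the log2 fold change was −0.055 (95% interval −0.43 to 0.32).

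ELF1, ELF2 and ELF4 are a subfamily best known from lymphocytes, and ELF1 and ELF2 also act on the angiopoietin receptor gene Tek in endothelium. Elf1 (NM_001286411.1) ranged from 144 to 219 CPM in aged libraries, with a median of 211, and from 138 to 239 CPM in young libraries, with a median of 158. Of the young libraries, 3 were below every aged one, but young 1.2 exceeded every aged library. The means were 190.0 ± 32.7 CPM in aged libraries and 164 ± 34.9 CPM in young ones (SD, n = 7 per age), a log2 fold change of 0.22 (SE 0.14). Exact permutation gave p = 0.16, and p = 0.0457 with no TMM scaling.

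Elf2 (NM_001291059.1) ranged from 156 to 279 CPM in aged libraries, with a median of 224, and from 199 to 319.9 CPM in young libraries, with a median of 272. In experiment 1 its means were 201 ± 38.7 CPM in aged libraries and 280.4 ± 36.0 CPM in young ones (SD, n = 3 per age), with no overlap. In experiment 2 they were 248 ± 37.8 CPM in aged libraries and 250.4 ± 56.7 CPM in young ones (SD, n = 4 per age), and the ages overlapped. The log2 fold changes were −0.48 (SE 0.21) and −0.016 (SE 0.18), and edgeR's test of their difference gave an unadjusted p of 0.123 (adjusted 0.9998). Elf4 (NM_019680.2), the scarcest member, had 40 to 178 reads per library. It ranged from 3.66 to 13.4 CPM in aged libraries, with a median of 8.27, and from 6.90 to 20.3 CPM in young libraries, with a median of 11.4. Its log2 fold change of −0.48 (SE 0.29) was as large as that of Ets2, with a wide interval of −1.10 to 0.14 and a biological coefficient of variation of 43.7%.

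Within the experiments, edgeR called 0 of 10 members in experiment 1, where 0% of all targets passed, and 0 of 10 in experiment 2, where 0.00706% did. DESeq2 called 0 members in each, with 87 of all 14168 targets called in experiment 1 and 52 in experiment 2, and limma-voom called 0 members, with 1 target and 3 targets. Unadjusted p was under 0.05 for 2 members in experiment 1, Ets2 (0.0221) and Elf2 (0.0424), beside 6.45% of targets, and for 0 members in experiment 2, beside 2.79%. The groups lay apart for Ets1, Ets2 and Elf2 in experiment 1, beside 19.0% of targets, and for 0 members in experiment 2, beside 1.37%. The test of a different age effect called 0 members with all 3 tools, and 0 had an unadjusted p under 0.05 in edgeR, beside 2.18% of targets.

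The make-up of the family, taken as shares of the reads on its 10 genes, does not depend on how libraries are scaled. Ets1 and Elk3 together took 62.3 to 69.3% of these reads in every library. Ets1 alone took 34.2 ± 4.09% in aged libraries and 36.6 ± 3.65% in young ones (SD, n = 7 per age). Ets2 took 7.80 ± 1.20% in aged libraries and 9.31 ± 1.22% in young ones, and Elf1 took 6.97 ± 1.14% in aged libraries and 5.28 ± 1.17% in young ones. The mean shares of Ets2 and Elf1 differed between ages by more than 1 SD, with Ets2 lower and Elf1 higher in aged libraries. That of Ets1 differed by less than 1 SD. The ranges of both ages overlapped and the shares were not tested. All 10 genes together took 0.277 ± 0.0205% of gene reads in aged libraries and 0.306 ± 0.0220% in young ones.

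**Figure D3:**
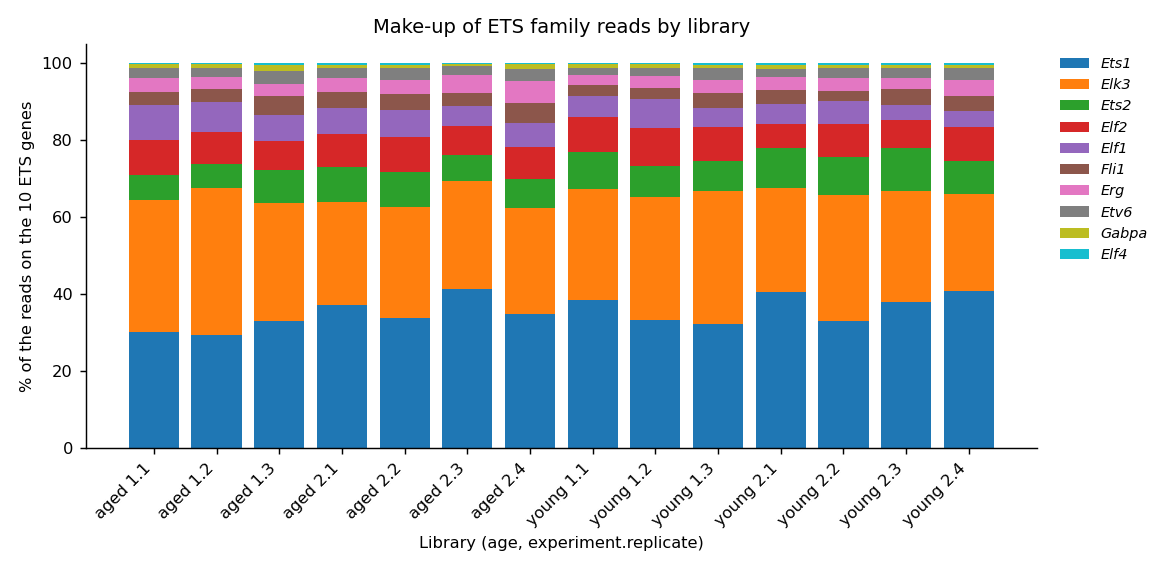
Share of each ETS gene in the reads on the 10 genes, one bar per library, with the 7 aged libraries left of the 7 young ones and segments stacked in order of mean level. The lowest 2 segments, Ets1 and Elk3, fill 62.3 to 69.3% of every bar.

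Levels of Ets1 were lower in libraries with a higher share of receptor reads. Across the 14 libraries the log2 level of Ets1 and the log2 share of receptor reads had a Pearson r of −0.82 (permutation p = 0.00049, adjusted 0.00098 over 2 relations) and a Spearman rho of −0.82 (permutation p = 0.00054, adjusted 0.00108). These permutations ran over all 14 libraries, so differences between ages and experiments enter both p-values. With no TMM scaling r was −0.73 (permutation p = 0.00476). With TMM, r was −0.83 once the 2 farthest libraries were left out. It was −0.86 within experiment 2 (exact permutation p = 0.00838) and −0.47 within experiment 1 (exact permutation p = 0.415), where the share spans a narrower range. Within aged libraries it was −0.98 (exact permutation p = 0.000992) and within young ones −0.84 (exact permutation p = 0.0185). The spread of this r over all targets is not given here, so the relation cannot be read as particular to Ets1.

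All 10 members had a negative r with the receptor share once each age and experiment was centred, from −0.21 for Elf4 to −0.88 for Ets1, with −0.70 for Ets2. These are descriptions over 14 libraries that share depth and scaling. The share of all targets with a negative r is not given here, so 10 of 10 cannot be read as a trait of the family. With the receptor share as a term in edgeR, Ets1 stood at −0.33 on the log2 scale (SE 0.0973, adjusted p = 0.191) and Ets2 at −0.48 (SE 0.11, adjusted p = 0.0856). Without it they stood at −0.31 (SE 0.16) and −0.47 (SE 0.14). The part of receptor reads in these age differences was not tested. The receptor term gave 0 called members, beside 0.416% of all targets, and 2 at an unadjusted p under 0.05, beside 12.5%. With the mean level of leukocyte markers as a term, the log2 fold change of Ets2 was −0.57, that of Elf4 −0.94 and that of Erg 0.30. Their unadjusted p-values in edgeR were 0.00521, 0.0107 and 0.0366, and each adjusted p was 0.906 or more. These were the 3 of 10 members with an unadjusted p under 0.05 under this term, beside 459 of all 14168 targets.

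**Figure D4:**
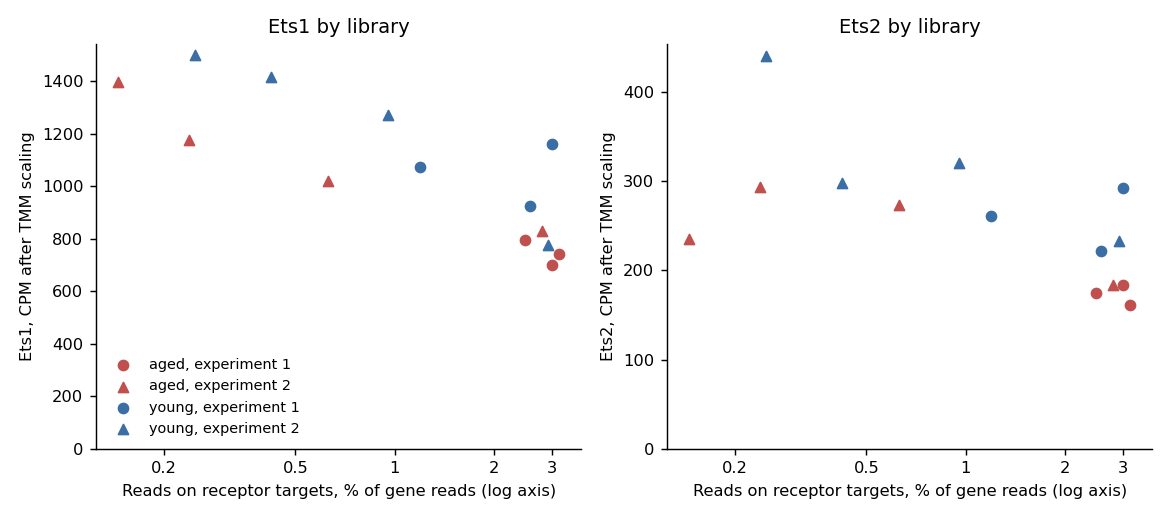
Ets1 and Ets2, in CPM after TMM scaling, against the share of reads on receptor targets in each library on a log axis, with aged in red, young in blue, circles for experiment 1 and triangles for experiment 2. Ets1 lies at 1021 CPM or above where the share is under 1%, and between 700.4 and 1161 CPM where it is over 2%.

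The series title places ETS1 upstream of Bmp6. Bmp6 (NM_007556.3) stood at 575 ± 101 CPM in aged libraries and 359.7 ± 121 CPM in young ones (SD, n = 7 per age), with an adjusted p of 0.407 in edgeR, while Ets1 had the lower mean in aged libraries. Across the 14 libraries their log2 levels had a Pearson r of −0.25 (permutation p = 0.395, adjusted 0.395 over 2 relations) and a Spearman rho of −0.28 (permutation p = 0.332, adjusted 0.332). No positive relation appeared over all libraries: r was −0.43 once the 2 farthest libraries were left out, −0.67 within experiment 1 (exact permutation p = 0.175) and 0.19 within experiment 2 (exact permutation p = 0.671). It was −0.47 within aged libraries (exact permutation p = 0.286) and 0.34 within young ones (exact permutation p = 0.446). With no TMM scaling r was −0.54 (permutation p = 0.049), and it lay between −0.54 without young 2.2 and −0.067 without young 2.4. Transcript levels carry no information on phosphorylation of ETS1.

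Among themselves, the 10 genes made 45 pairs, of which 39 had a positive r of log2 CPM after centring within age and experiment, with a median r of 0.41. The share of positive pairs among all targets is not given here, so 39 of 45 cannot be read as a trait of the family. Fli1 with Etv6 (0.83), Fli1 with Gabpa (0.80) and Ets1 with Ets2 (0.73) were highest. Elf4 with Erg was among the 6 negative pairs, at −0.36. The targets most like Ets1 over the 14 libraries were Ptbp2 (r 0.96), Slc30a9 (0.95) and Unc5a (0.94). Those most like Elk3 were Vps36 (0.96), Pak2 (0.95) and Stim2 (0.95), and those most like Ets2 were Mcl1 (0.95), Sat1 (0.95) and Ppfia1 (0.93). Each of these 9 targets also had an r of −0.64 to −0.85 with the receptor share, beside −0.88 for Ets1, −0.72 for Elk3 and −0.70 for Ets2.

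Partners and kinases of the family include GABPB, serum response factor and its cofactors, coactivators, and the ERK and p38 kinases with their activators. Of 19 tested, 0 passed in edgeR and 0 had an unadjusted p under 0.05, beside 0.162% and 6.77% of all targets. Log2 fold changes were negative for 11, with a median of −0.049. The smallest p belonged to Mrtfa, a cofactor of serum response factor (17.7 ± 5.93 CPM in aged libraries and 13.7 ± 2.34 CPM in young ones, log2 fold change 0.38). Map2k2, an activator of the ERKs, Srf itself and Map2k6, an activator of p38, followed at −0.15, −0.27 and −0.21. Mapk14, the gene of p38 alpha, was at −0.037 (SE 0.18).

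Endothelial genes with described ETS control made up the largest list, with 32 tested genes. In edgeR 0 passed and 2 had an unadjusted p under 0.05, beside 0.162% and 6.77% of all targets. Log2 fold changes were negative for 27 of 32, with a median of −0.14. Of all 14168 targets 7145 were negative. The leukocyte term left 23 of 32 negative, with a median of −0.066, and no TMM scaling left 22. Icam2, an adhesion molecule for leukocytes, stood at 204 ± 37.0 CPM in aged libraries and 279 ± 34.6 CPM in young ones (log2 fold change −0.45, SE 0.13, adjusted p = 0.460 in edgeR), and DESeq2 called it. Klf2, the flow-induced transcription factor, stood at 919 ± 388 CPM in aged libraries and 1601 ± 506 CPM in young ones (log2 fold change −0.80, SE 0.33, adjusted p = 0.676 in edgeR). Both passed with the receptor share as a term, as did 0.416% of all targets. Emcn, a sialomucin, and Tie1, an endothelial receptor kinase, were at −0.28 and −0.22. Cdh5 and Tek, named above as genes that the family acts on, were at −0.15 (SE 0.13) and −0.23 (SE 0.17).

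Serum response genes with ternary complex sites are the class on which ELK3 acts. All 10 tested had a negative log2 fold change, with a median of −0.73, where 7145 of all 14168 targets were negative. Yet 0 passed in edgeR and 3 had an unadjusted p under 0.05, beside 0.162% and 6.77% of all targets. DESeq2 called 0 as well, with 5 of 10 at an unadjusted p under 0.05, beside 9.69% of all targets. Their summed level, without TMM, was 1152 to 4396 CPM in aged libraries and 973 to 13335 CPM in young ones, so the young libraries held both extremes. Fos averaged 1041 ± 495 CPM in aged libraries and 2536 ± 1537 CPM in young ones (SD, n = 7 per age; log2 fold change −1.29, SE 0.50). Fosb, Ier2 and Junb, which like Fos respond within minutes to a stimulus, were at −1.97, −0.79 and −0.75. The median was −0.42 with the leukocyte term and −0.91 without young 2.2 and aged 2.4. With the leukocyte term 0 of 10 had an unadjusted p under 0.05 in edgeR, beside 459 of 14168 targets. Without young 2.2 and aged 2.4 it was 7 of 10, beside 1732 of 14202 targets. Both fits called 0 of the 10.

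Protease and matrix genes described as ETS1 targets were mixed. Of 13 tested, 0 passed in edgeR and 3 had an unadjusted p under 0.05, beside 0.162% and 6.77% of all targets. Log2 fold changes were negative for 7 and positive for 6, and the median was −0.014. Adamts1, a secreted metalloprotease, averaged 299 ± 100.5 CPM in aged libraries and 744 ± 490.2 CPM in young ones (log2 fold change −1.30, SE 0.41, adjusted p = 0.494 in edgeR). Itgb3, an integrin chain, was at 0.99 and Mmp9, the gene of gelatinase B, at 2.02. Timp3, a protease inhibitor, was at 0.35. Mmp9 is also a neutrophil gene. Monocyte and neutrophil markers summed, without TMM, to 53.8 to 1390 CPM in aged libraries and 47.9 to 570 CPM in young ones. Their part in the Mmp9 value was not tested. Of 12 tested targets of GABP, 0 had an unadjusted p under 0.05, 7 were negative, and the median was −0.032. The 4 with the smallest p were Cox5b (0.18), a subunit of cytochrome c oxidase, Polrmt (−0.25), the mitochondrial RNA polymerase, Cs (−0.12), citrate synthase, and Skp2 (−0.13), a ubiquitin ligase subunit.

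The other ETS family genes all lay under the mean level of Erg. Of 16 listed, 15 had a target and 10 were tested, in descending order of level Elk4, Etv5, Erf, Elk1, Etv3, Spi1, Etv2, Elf3, Fev and Spib. Elk4, another ternary complex factor, stood at 91.2 ± 17.9 CPM in aged libraries and 94.9 ± 17.2 CPM in young ones, near Etv6. Etv4, Elf5, Ehf, Spic and Spdef had too few reads to be tested. Etv2 and Elf3 rose with the share of receptor reads. Where that share was 2.47% or more, Etv2 ran from 18.4 to 53.8 CPM and Elf3 from 6.63 to 10.6 CPM. Where it was 1.19% or less, Etv2 ran from 1.51 to 9.40 CPM and Elf3 from 0.227 to 5.41 CPM. Passing the filter therefore does not show that LSECs express Etv2 or Elf3, and the source of their reads was not tested. In edgeR 0 of the 10 passed, beside 0.162% of all targets, and 1 had an unadjusted p under 0.05, beside 6.77%.

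That gene was Spi1, which encodes PU.1, the factor of myeloid cells and B cells. It ranged from 5.53 to 87.1 CPM in aged libraries and from 1.83 to 49.6 CPM in young libraries. Aged 1.3, 2.1 and 2.2 and young 2.1 had the most, and the others lay under 40 CPM. Its means were 39.3 ± 33.96 CPM in aged libraries and 14.9 ± 16.9 CPM in young ones (SD, n = 7 per age), and edgeR gave a log2 fold change of 1.82 with an SE of 0.74 and an adjusted p of 0.676. Spib, a relative of Spi1 in B cells, was at 6.15 ± 8.08 CPM in aged libraries and 1.48 ± 2.99 CPM in young ones, with aged 1.3, aged 2.2 and young 2.1 highest. The Kupffer cell, B cell and monocyte and neutrophil marker sums given above also reached higher values in aged libraries. With the leukocyte term the log2 fold change of Spi1 was −0.034 (SE 0.29), and 0 of the 10 other ETS genes had an unadjusted p under 0.05, beside 459 of all 14168 targets, against 959 with no such term. The term is a mean over markers that include those of myeloid cells and B cells. In experiment 1 it was 2.25 to 5.68 in aged libraries and 1.24 to 1.51 in young ones, while in experiment 2 the ages overlapped. Age and leukocyte content therefore cannot be told apart by this fit, and the cause of the Spi1 difference was not tested.

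**Figure D5:**
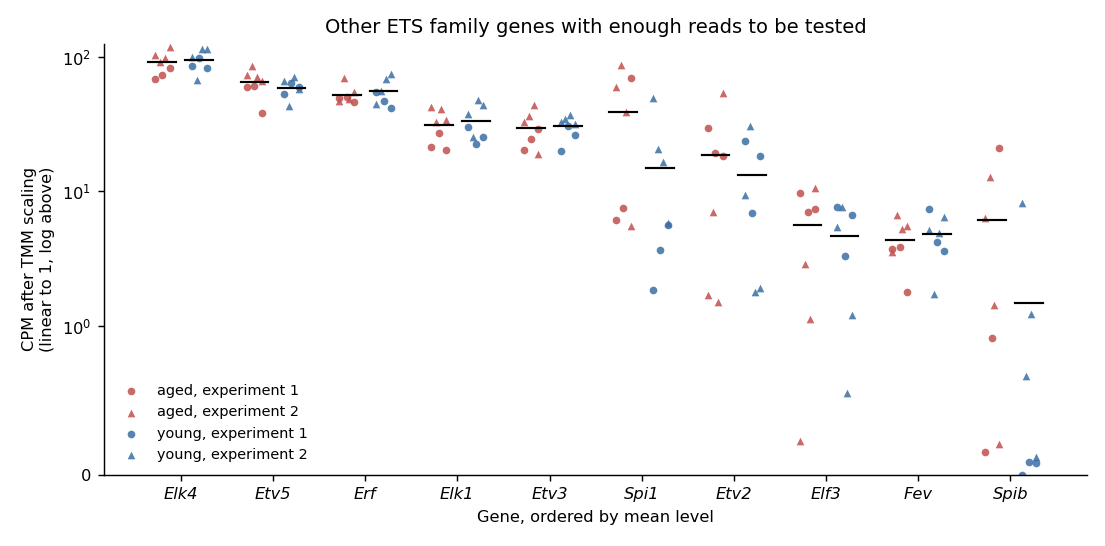
Level of the 10 other tested ETS genes in each library, in CPM after TMM scaling on an axis that is linear to 1 and logarithmic above, with aged left of young, symbols for experiments and bars at means. Spi1 runs from 1.83 to 87.1 CPM, and Etv2, Elf3 and Spib also vary widely between libraries, while Elk4, Etv5 and Erf stay closer to their means. Etv2 and Elf3 are higher in libraries with a larger share of receptor reads.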

How the data were processed

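Messenger RNA of 14 libraries of sorted LSECs was measured with an amplicon panel (Ion AmpliSeq mouse transcriptome, per the labels' protocols). The deposited values are raw read counts per RefSeq transcript. HTSeq 0.6.0 and DESeq2 1.18.1 are named in the submitters' processing notes. Aligner, genome build and strand setting: not given in the sources used here. A file held 23930 targets and 5 bookkeeping entries, which held 1.24 to 3.04% of reads and were left out. Names came from RefSeq (GRCm38.p6): 18128 targets matched with their version, 4324 without it, 110 through GENCODE tables and 1368 not at all.

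The model for aged against young, with a term for the experiment, was edgeR's quasi-likelihood test (edgeR 4.0.16, R 4.3.3) on TMM-scaled libraries and the 14168 targets that filterByExpr kept. A model of 4 means gave each experiment and their difference. Adjusted p-values (Benjamini-Hochberg) run over all 14168 targets and calls were made under 0.05. An SE is the log2 fold change over the root of its F. DESeq2 1.42.0, limma-voom (limma 3.58.1), no TMM, no filter on low counts, added terms, a replicate block and left-out or summed libraries were alternatives. Exact two-sided permutations of log2 CPM (prior count 2) kept labels within experiments. Correlations over 10 or more libraries used 100000 permutations in Python 3.11.15, which held neither age nor experiment fixed. Amplicon reads without molecular identifiers are not independent molecules. Calls by the model were tested on simulated data.

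Named were all 10 members, the other ETS genes that passed the filter, up to 4 genes with the smallest p from each list, Bmp6, and the 3 targets with a mean of at least 5 CPM most like each of the 3 most abundant members. Mapk14, Cdh5 and Tek were named outside this rule, after their values were seen. The members, lists and tests were chosen with earlier results of these data known.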

Additional observations from a re-analysis of the deposited data

Results flagged for a closer look

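Among the levels of the ETS genes and Bmp6, 44 groups of 4 or 7 libraries were checked for 1 library far from the others, and 3 stood out by Dixon's criterion at 95%, which chance meets in about 1 in 20 groups. Fli1 was at 115.5 CPM in aged 2.3, while the other aged libraries of experiment 2 lay close together above it. Elf1 was at 238.8 CPM in young 1.2, above the other 6 young libraries. Gabpa was at 19.48 CPM in aged 2.3, below the other 6 aged libraries. Aged 2.3 also held the fewest receptor reads, 0.145% of gene reads, and the part of these reads in the values was not tested. For none of the 10 ETS genes did the age effect differ between experiments at an unadjusted p under 0.05 in edgeR.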

How the results depend on the processing

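The count of ETS genes called over both experiments was 0 under 23 of 24 alternatives and 1 with DESeq2 (Ets2). Within each experiment, and for the difference between experiments, it was 0 under all 23 alternatives. Ets2 was negative in every alternative. Signs that turned were those of genes near 0. Erg was at −0.042 without young 2.2 and aged 2.4. Fli1 was at 0.079 with no TMM, 0.039 with limma-voom, 0.035 with the replicate block, 0.0098 with the receptor term, 0.0051 with the leukocyte term and 0.017 with aged 1.1 and aged 1.2 summed. Gabpa was at 0.030 with no TMM. Leaving out 1 library at a time gave −0.018 to 0.15 for Erg, −0.12 to 0.088 for Fli1 and −0.15 to 0.039 for Gabpa. Elf4 (−0.48) reached −0.77 without aged 1.3 (unadjusted p = 0.00809), with 0 ETS genes called. Elk3 (−0.16) was at −0.095 without young 2.3 and −0.098 without aged 1.3, Elf2 (−0.21) at −0.13 without aged 1.3, and Etv6 (−0.088) at −0.015 without young 1.3, −0.026 without young 2.4, −0.043 without young 2.3, −0.14 without young 1.1 and −0.15 without young 2.2. The cause of these turns was not tested. Ets1 with Bmp6 had an r of −0.54 with no TMM (permutation p = 0.049) and of −0.54 to −0.067 when 1 library was left out. Ets1 with the receptor share had −0.73 with no TMM and −0.90 to −0.79 when 1 library was left out.

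The number of all targets called over both experiments was 23, and 46 with no TMM, 142 with DESeq2, 59 with the receptor term, 3 with the leukocyte term, 12 with no experiment term, 36 without young 2.2 and aged 2.4, 4 with aged 1.1 and aged 1.2 summed, and 4 to 29 with 1 library left out, with 11 or fewer when that library was aged 1.1, 1.2, 2.1, 2.2 or 2.3 or young 1.1, 1.3, 2.3 or 2.4. In experiment 1 it was 0, and 1 with no TMM, 87 with DESeq2, 1 with limma-voom, 2 with the receptor term, 2 without young 2.2 and aged 2.4, and 0 with any 1 library left out. In experiment 2 it was 1, and 5 with no TMM, 52 with DESeq2, 3 with limma-voom, 21 with the receptor term, 3 without young 2.2 and aged 2.4, and 1 to 3 with 1 library left out.

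Replicate numbers are shared by the ages, and the deviations of same-numbered libraries had correlations of −0.385 to 0.776. The young library most like aged 1.2, aged 2.2 and aged 2.3 had the same number. For aged 1.1, 1.3, 2.1 and 2.4 it had another number. With so few libraries per experiment, this cannot settle whether the numbers pair them. With the replicate number as a block, 0 ETS genes were called, as without it, with 5 targets in all over both experiments and 0 in experiment 2. Depth limits Elf4 most, with 40 to 178 reads per library, and Gabpa next, with 116 to 396.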
